A study of Mus musculus with 6 samples.

Results

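Hepatic stellate cells are the vitamin A storing pericytes of the liver sinusoid, and 10 genes that mark them and the fibroblasts of the liver were examined. They are Pdgfra, Pdgfrb, Ngfr, Des, Acta2, Dcn, Lum, Lrat, Reln and Hand2. Every probe set that the array annotation assigned to exactly 1 of these symbols was taken, which gave 181 of the 229581 probe sets and 10 of the 16277 genes. The study hybridised whole-liver RNA to 6 exon arrays, on which a gene is read by several probe sets. Of these, 3 were from SRSF3HKO mice and 3 from wild-type (WT) littermates. SRSF3HKO mice lack the splicing factor SRSF3 in hepatocytes, so the gene was not targeted in the stellate cells and fibroblasts themselves. Mice of both groups were untreated and 1 month old, and the labels give neither their sex nor the Cre driver of the deletion. The comparison asks whether markers of the resting and of the activated state differ in liver tissue when hepatocytes lack SRSF3. The labels count 3 knockout mice but leave it unsaid whether the WT arrays are of separate mice, so a p-value here measures only the spread between these samples.

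A resting (quiescent) stellate cell holds retinyl esters in lipid droplets and makes growth factors for its neighbours. On injury it can turn into a contractile, matrix-producing myofibroblast, a change called activation, which lowers its retinoid store and raises smooth muscle actin, collagens and PDGF receptor beta. Fibroblasts of the portal tract, the capsule and vessel walls share many of these markers. Of the 10 genes, Lrat, Reln, Ngfr and Hand2 were grouped as quiescent markers, Pdgfrb, Acta2 and Lum as activated markers, and Pdgfra, Des and Dcn as markers of both states. The grouping is a convention: p75NTR, the product of Ngfr, is also known from activated human cells.

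Of the 10 genes, Pdgfra rose, Ngfr fell and 8 did not pass the test. These 2 calls of 10 stand beside 11.9% of all 11711 genes tested (limma adjusted p under 0.05), of which 6.85% were higher and 5.03% lower. The groups did not overlap in 3 of the 10 genes, Pdgfra and Dcn, which were higher in SRSF3HKO, and Ngfr, against 35.6% of all genes tested. No activated marker was called by limma, and at an unadjusted p under 0.05 the count was also 0 of 3. The median log2 change was 0.63 over the activated markers, -0.31 over the quiescent markers and 0.76 over the markers of both states, against 0.08 over all genes tested. A median over 3 genes is the value of 1 gene, here Acta2 for the activated markers and Dcn for those of both states. Acta2 was high on SRSF3HKO replicate 2 alone, and Pdgfrb had a log2 change of 0.01, so these medians do not describe the markers as sets. Log2 changes are given as SRSF3HKO minus WT after adding 16 to each intensity, which makes changes of dim genes look smaller, and gene levels are medians over probe sets with 3 arrays per group. The RNA came from whole tissue, in which fewer cells of a type and less RNA per cell cannot be told apart.

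**Figure D1:**
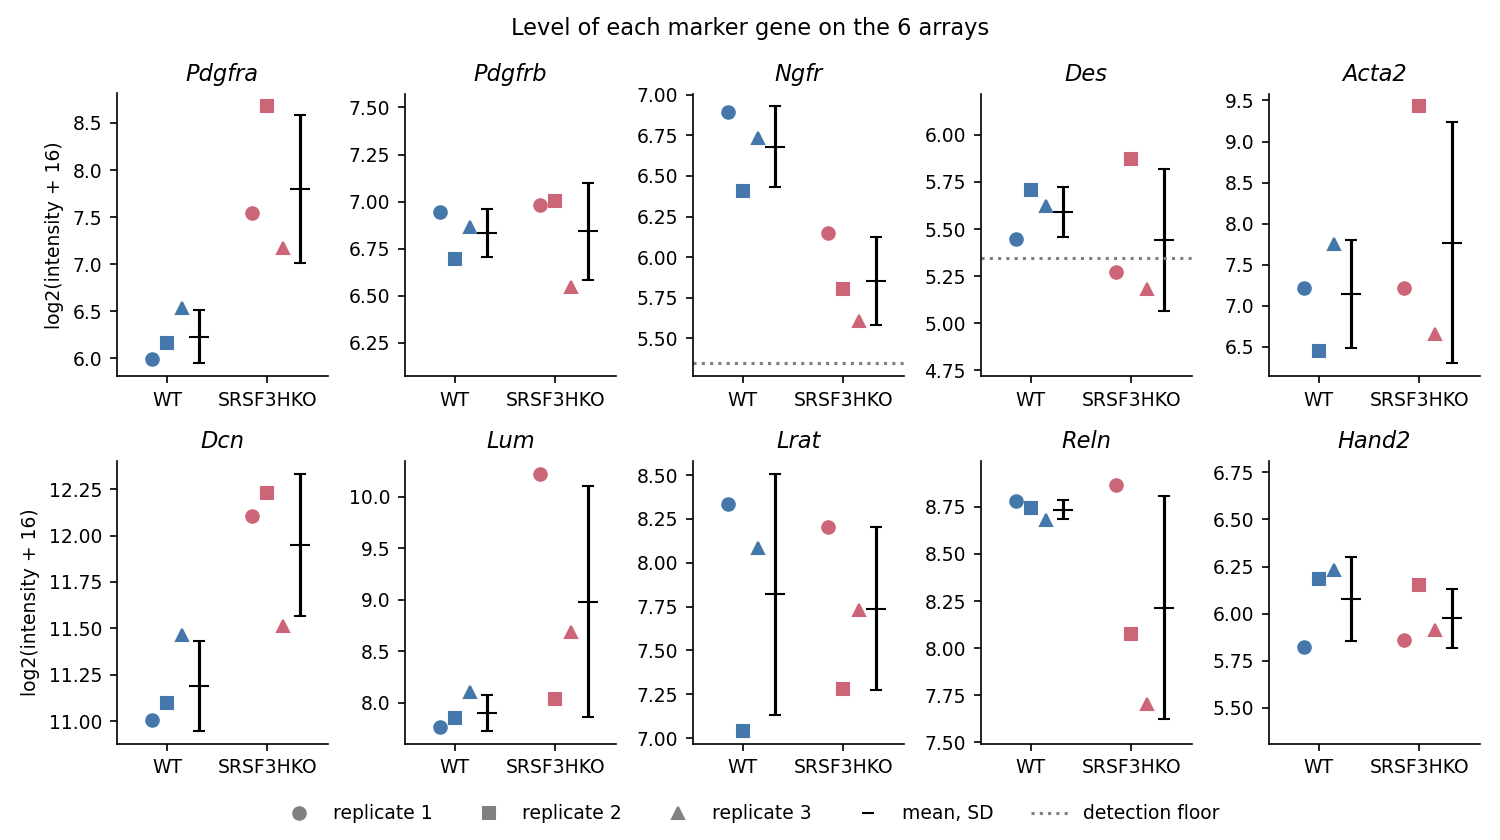
Level of each of the 10 marker genes as log2(intensity + 16), with 1 point per array, the mean and SD beside the points, and the detection floor dotted where it is near. Pdgfra and Dcn were higher on all 3 SRSF3HKO arrays than on any WT array and Ngfr was lower, while Acta2 was high on SRSF3HKO replicate 2 alone and Lum highest on replicate 1.

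The arrays were alike in brightness, with a median intensity of 75.3 to 89.6. The hepatocyte gene Alb was at 13.75 to 13.95 on the log2 scale on every array. It does not stand for all hepatocyte markers, of which 10 of 11 had a negative log2 change, with a median of -0.26. Their summed intensity was lower on every SRSF3HKO array than on any WT array. Srsf3 itself had a gene level of 9.24 to 9.79 in WT and 9.10 to 10.30 in SRSF3HKO (log2 change 0.26 ± 0.31, SE, limma adjusted p = 0.625). The labels do not name the deleted part, so this median over probe sets does not check them. The Y-linked gene Eif2s3y was at 8.36 to 8.99 on WT replicates 1 and 2 and SRSF3HKO replicate 3 and at 4.16 to 4.18 on the others, so each group holds arrays that have this signal and arrays that lack it.

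The upstream sequences of the 3 genes that the results turn on are given from RefSeq on build GRCm38.p6, as the 250 bases before the gene start. Pdgfra and Ngfr are shown because they were the called genes, and Acta2 because it is the classic target of serum response factor (SRF), whose programme is examined with it. Capitals mark matches on either strand to the motif GGGCGG, to the motif CCAAT, to the motif TATANA, or to a CArG-like sequence. The CArG-like sequence has CC and GG around 6 middle bases of which at least 5 are A or T, and it was added after the strict CArG box, with 6 of 6, had no match in Acta2. These windows lie at chr5:75152001-75152250 on the plus strand for Pdgfra, chr11:95587699-95587948 on the minus strand for Ngfr and chr19:34255374-34255623 on the minus strand for Acta2.
Pdgfra: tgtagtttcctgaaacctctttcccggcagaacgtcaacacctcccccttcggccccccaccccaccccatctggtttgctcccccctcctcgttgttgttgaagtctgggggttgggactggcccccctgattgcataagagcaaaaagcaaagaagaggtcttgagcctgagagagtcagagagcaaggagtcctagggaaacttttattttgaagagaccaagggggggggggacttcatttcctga
Ngfr: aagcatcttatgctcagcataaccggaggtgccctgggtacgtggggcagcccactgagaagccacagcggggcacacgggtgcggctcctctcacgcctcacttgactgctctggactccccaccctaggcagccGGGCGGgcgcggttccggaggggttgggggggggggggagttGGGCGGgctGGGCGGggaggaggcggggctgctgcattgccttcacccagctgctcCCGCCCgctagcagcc
Acta2: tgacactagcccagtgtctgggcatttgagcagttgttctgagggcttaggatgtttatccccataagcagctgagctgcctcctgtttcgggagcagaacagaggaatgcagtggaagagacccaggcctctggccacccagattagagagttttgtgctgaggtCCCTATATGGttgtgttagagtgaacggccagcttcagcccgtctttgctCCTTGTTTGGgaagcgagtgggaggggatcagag
The Acta2 window held 2 CArG-like matches, CCCTATATGG at -84 to -75 and CCTTGTTTGG at -34 to -25, counted from the gene start. Such a match was found in 8.59% of 32851 RefSeq mouse promoters of the same length, and the strict box in 1.47%. The Ngfr window held GGGCGG 4 times, a sequence found in 32.7% of promoters, and its GC content was 70.4% against a median of 52.4%. The Pdgfra window held none of the marked sequences (CCAAT was found in 33.8% and TATANA in 22.6% of promoters), which says only that these letters are not in this window. A match is a description of the sequence and not a binding site.

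Pdgfra encodes PDGF receptor alpha, a tyrosine kinase on stellate cells and fibroblasts that binds PDGF-A and PDGF-C among other ligands. Its median intensity was 47.5, 55.4 and 76.9 on WT replicates 1 to 3 and 170.5, 393 and 129 on SRSF3HKO replicates 1 to 3. Every SRSF3HKO array stood above every WT array, and replicate 2 was the brightest. The log2 levels of 5.99, 6.16 and 6.54 against 7.54, 8.68 and 7.18 gave a rise of 1.57 ± 0.37 (SE, 95% interval 0.71 to 2.42, limma adjusted p = 0.0339). Leaving out WT replicate 1, 2 or 3 ended the call (limma adjusted p = 0.131, 0.130 and 0.0784) at log2 changes of 1.45, 1.53 and 1.72, as did a covariate for the Y-linked signal (1.37, limma adjusted p = 0.0544). Within the arrays with Y-linked signal the difference was 1.10 and within those without it 1.57.

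The difference in Pdgfra was shared by its probe sets. All 27 of its probe sets had a higher mean in SRSF3HKO, by 0.95 to 2.10 on the log2 scale with a median of 1.53. Of these, 17 were called higher by limma, against 4.73% of 157764 probe sets tested. The groups did not overlap in 25, against 15.1% of all probe sets that were higher without overlap. SRSF3HKO replicate 2 stood above all WT arrays in 27 of 27 probe sets and replicates 1 and 3 in 26 each. Probe set 5304704, whose difference was the largest of the 27, stood at 10.67, 10.47 and 10.62 on the WT arrays and at 12.47, 13.71 and 11.88 on the SRSF3HKO arrays (limma adjusted p = 0.0142). Probe sets of 1 gene read the same transcripts and are not independent.

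Pdgfrb, which encodes a receptor for PDGF-B and is known to rise when stellate cells are activated, showed no such difference. Median intensities were 107, 87.6 and 100.9 in WT and 110.4, 112 and 77.5 in SRSF3HKO, with the groups overlapping. The log2 change was 0.01 ± 0.20 (SE, 95% interval -0.45 to 0.47, limma adjusted p = 0.984), and its sign turned under 10 of the alternative settings. Of its 28 probe sets, 16 had a higher and 12 a lower mean in SRSF3HKO and none of the 27 tested was called. The change of Pdgfra exceeded that of Pdgfrb by 1.56 on the log2 scale, a contrast within each array from which overall array brightness largely cancels. Its exact two-sided permutation p was 0.1, the smallest that 3 against 3 arrays allow.

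Among the ligands, Pdgfa rose, from 6.00, 5.96 and 6.13 in WT to 7.10, 6.85 and 7.12 in SRSF3HKO (log2 change 0.99 ± 0.18, limma adjusted p = 0.0131). Pdgfa encodes PDGF-A, a ligand of the alpha receptor, and its groups did not overlap. Pdgfb, Pdgfc and Pdgfd, the other ligand genes, had log2 changes of 0.10, 0.13 and 0.06, and none was called. Pdgfc was high on SRSF3HKO replicate 1, at 7.74, and at 6.22 and 5.94 on the others, against 6.30 to 6.89 in WT. Nrp1, a co-receptor for PDGF and VEGF that endothelial cells also carry, fell from 9.54, 9.34 and 9.31 to 7.91, 6.70 and 7.40 (log2 change -2.06 ± 0.30, limma adjusted p = 0.00683). So 1 of the 5 tested genes of this list rose and 1 fell, against 6.85% and 5.03% of all genes tested. The call of Pdgfa ended with the mean or median polish over its probe sets (log2 change 0.45 and 0.53) and when WT replicate 1, 2 or 3 was left out (limma adjusted p = 0.0755, 0.0659 and 0.0518), whereas that of Nrp1 held in all 19 alternatives.

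**Figure D2:**
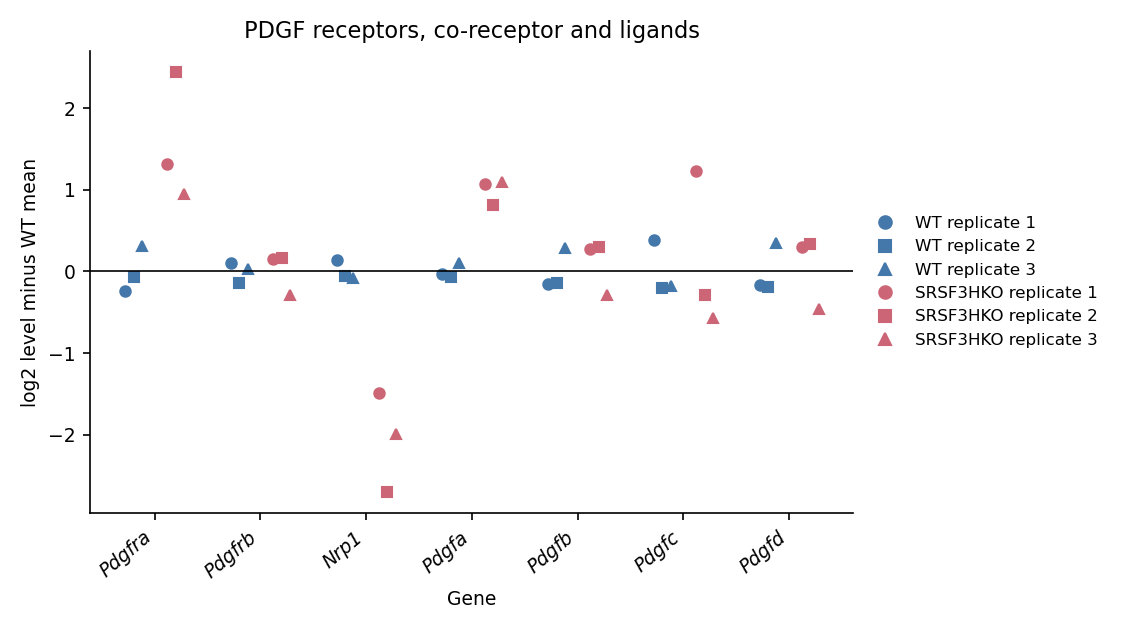
PDGF receptors, the co-receptor Nrp1 and the ligands, each array's log2 level minus the WT mean of that gene, with 1 point per array. Pdgfra and Pdgfa lay above all WT arrays on the 3 SRSF3HKO arrays, Nrp1 lay 2.06 lower on average, and Pdgfrb scattered about the WT mean.

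On the genome Pdgfra lies between Gsx2 and Kit in RefSeq order, with Chic2 and Kdr next to these. Kit, another receptor of the same family, was at 6.15 to 6.72 in WT and 6.32 to 6.88 in SRSF3HKO (log2 change 0.19, limma adjusted p = 0.645). Kdr, a VEGF receptor of endothelial cells, fell by 0.87 on the log2 scale (limma adjusted p = 0.0452). Chic2 had a log2 change of 1.23 ± 0.52 and Gsx2 of -0.38, and neither was called (limma adjusted p = 0.159 and 0.318).

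Ngfr encodes p75NTR, the low-affinity neurotrophin receptor. Median intensities were 103, 69.6 and 90.7 in WT and 54.9, 40.1 and 32.8 in SRSF3HKO, so all SRSF3HKO arrays were dimmer than all WT arrays. The log2 levels of 6.90, 6.41 and 6.74 against 6.15, 5.81 and 5.61 gave a fall of 0.83 on the log2 scale (SE 0.22, 95% interval -1.32 to -0.33, limma adjusted p = 0.0438). All 8 probe sets had a lower mean in SRSF3HKO, by -1.38 to -0.23. The groups did not overlap in 4, against 11% of all probe sets that were lower without overlap. Of the 6 bright enough to test, 1 was called lower, against 4.32% of probe sets: 5168545 stood at 6.77, 6.57 and 6.67 in WT and 5.90, 5.72 and 5.42 in SRSF3HKO (limma adjusted p = 0.0439).

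The call of Ngfr lay close to the threshold and near the detection floor of 5.35. Leaving out WT replicate 1, 2 or 3 or SRSF3HKO replicate 2 or 3 ended it (limma adjusted p = 0.161, 0.0803, 0.136, 0.0581 and 0.108), with log2 changes between -0.96 and -0.70. It also ended with the mean over probe sets (limma adjusted p = 0.0537), with only probe sets above the floor (0.0670), with no filter (0.0565) and with the Y-linked covariate (0.0654). The difference was -1.05 within the arrays with Y-linked signal and -0.76 within the others.

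Of the other neurotrophin genes, Bex1, whose product binds the p75NTR tail in rat cells, rose. It stood at 4.67, 4.39 and 4.33 in WT, all below the floor, and at 8.47, 8.25 and 8.32 in SRSF3HKO, which puts it at least 8.0-fold above WT (limma adjusted p = 8.7e-05). Its call held in all 19 alternatives, though Bex1 passed the floor only through its SRSF3HKO arrays. Bex3 and Maged1, which encode further p75NTR partners, had log2 changes of 0.74 and -0.45 and were not called, though Bex3 was higher on every SRSF3HKO array. Ntrk2, the TrkB receptor, and Sort1, the sorting receptor sortilin, had log2 changes of -0.74 and -0.22 and were not called. The ligand genes Bdnf and Ntf5 and the receptor gene Ntrk3 were below the floor. Ngfr included, 1 of the 6 tested genes of this list rose and 1 fell, against 6.85% and 5.03% of all genes tested.

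Acta2 encodes smooth muscle alpha-actin, the standard marker of myofibroblasts and of vascular smooth muscle. The median intensity was 133, 71.2 and 199.9 in WT and 133, 685 and 84.8 in SRSF3HKO. SRSF3HKO replicate 2 was far above every other array, while replicates 1 and 3 lay within the WT range. The log2 levels of 7.22, 6.45 and 7.75 against 7.22, 9.43 and 6.65 gave a change of 0.63 ± 0.67 (SE, 95% interval -0.90 to 2.16, limma adjusted p = 0.580). Without SRSF3HKO replicate 2 the sign turned, to -0.20 (limma adjusted p = 0.753), as it did with array weights (-0.03). All 10 probe sets had a higher mean in SRSF3HKO, yet replicate 2 was above all WT arrays in 10 of 10, replicate 1 in 1 and replicate 3 in none. Replicate 3 was below all WT arrays in 5.

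Some other genes of the smooth muscle programme stood out on the same array. Actg2, gamma smooth muscle actin, was at 7.70 on SRSF3HKO replicate 2 and at 4.90 to 5.58 on the other 5 arrays. Myh11, smooth muscle myosin heavy chain, was at 7.09 there and at 5.16 to 5.66 elsewhere, and Cnn1, calponin, at 6.31 against 4.74 to 5.24. Tagln, the actin-binding protein transgelin, was also highest there, at 8.34, but SRSF3HKO replicate 1 followed at 7.62 against 6.46 to 7.30 in WT. These 4 genes were named after their values were seen. So were Srf, Smtn and Cald1 of the same list, which were lowest on SRSF3HKO replicate 2. They stood there at 6.37, 6.26 and 9.52, against 6.96 to 7.22, 6.53 to 6.75 and 10.01 to 10.23 in WT. The median level of the list was 0.38 above the WT mean on SRSF3HKO replicate 2. Of the 16 tested genes of the SRF and myocardin list 1 rose, Mrtfb, an SRF co-activator (log2 change 0.79 ± 0.19, limma adjusted p = 0.0374), and none fell. The call of Mrtfb ended without any of WT replicates 1 to 3 (limma adjusted p = 0.119, 0.130 and 0.128) or SRSF3HKO replicate 1 (0.0597). The list's median log2 change was 0.16, and of all genes tested 6.85% rose.

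The median of the vascular smooth muscle and pericyte markers was also highest on SRSF3HKO replicate 2. Their median level was 0.82 above the WT mean on SRSF3HKO replicate 2 and 0.02 and 0.01 above it on replicates 1 and 3, and their summed intensity was 560 to 680 in WT and 751 to 1311 in SRSF3HKO. The tested markers were divided. Actg2, Myh11, Kcnj8, Abcc9 and Mcam were highest on replicate 2. Notch3 and Cspg4 lay within their WT range there, and Smtn and Rgs4 lay below it. Apart from Kcnj8, these genes were named after their values were seen. Of 9 tested markers 1 rose, Kcnj8, a potassium channel subunit of pericytes (7.40 to 7.76 against 6.60 to 6.81, limma adjusted p = 0.0258), and that call ended without any of WT replicates 1 to 3 (0.0959, 0.100 and 0.0985) or SRSF3HKO replicate 3 (0.0564). Of all genes tested 6.85% rose. Cnn1 and Lmod1 were below the floor on average. The part of these cells in the Acta2 value was not tested. Pdgfra was also brightest on this array, and without it the log2 change of Pdgfra was 1.13 ± 0.24 (limma adjusted p = 0.0168).

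**Figure D3:**
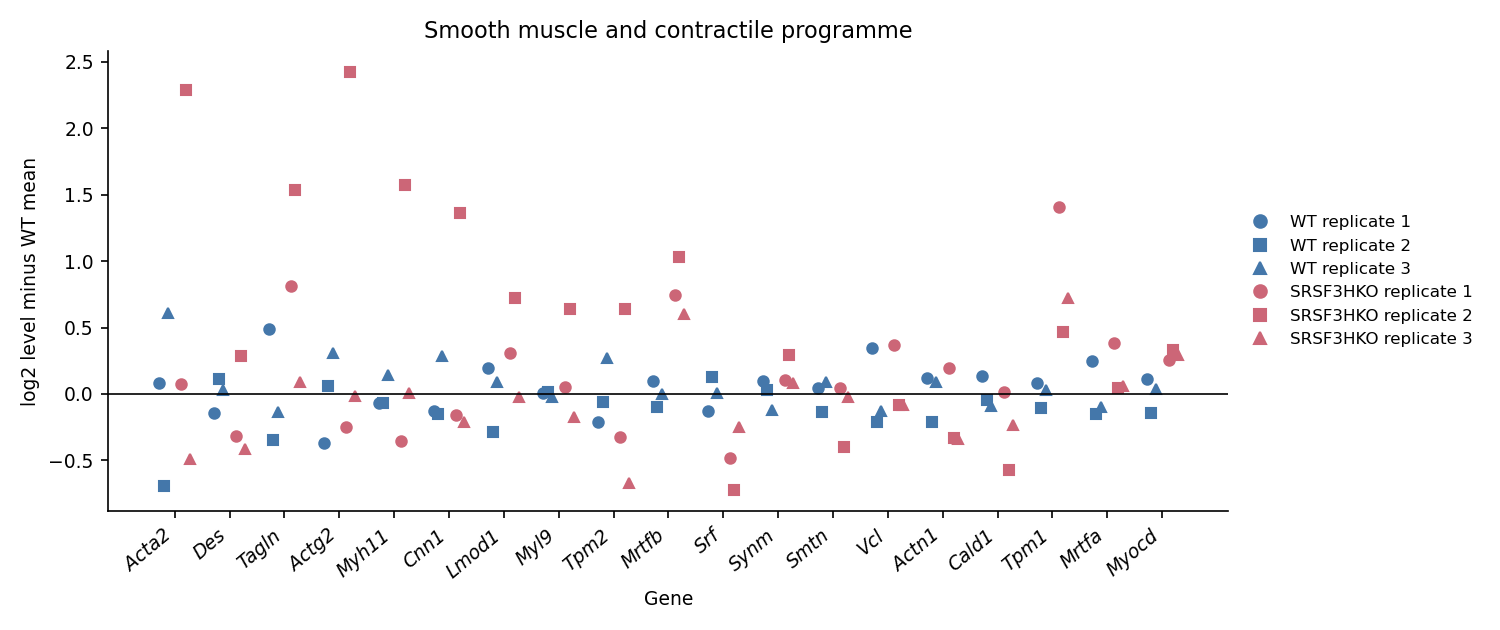
Smooth muscle and contractile genes, each array's log2 level minus the WT mean of that gene, with 1 point per array. Acta2, Actg2, Myh11 and Cnn1 were high on SRSF3HKO replicate 2 and near the WT arrays on replicates 1 and 3. Srf, Smtn and Cald1 were lowest on SRSF3HKO replicate 2.

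Des encodes desmin, the intermediate filament used to find stellate cells in rodent liver. Its gene level was dim, with a median intensity of 27.7, 36.2 and 33.2 on the WT arrays and 22.6, 42.6 and 20.3 on the others. On 2 of the SRSF3HKO arrays this level was below the floor. The groups overlapped, and the log2 change was -0.15 ± 0.21 (SE, limma adjusted p = 0.687). Of its 13 probe sets 5 were bright enough to test and none was called. The other 8 were below the floor, so the median over probe sets understates the brighter ones. Probe set 4905141, the brightest, stood at 9.24, 9.85 and 9.39 in WT and 8.49, 9.21 and 9.64 in SRSF3HKO.

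Dcn encodes decorin, a small leucine-rich proteoglycan that binds collagen and TGF beta. Its median intensity was 2041, 2173 and 2804 in WT and 4388, 4788 and 2902 in SRSF3HKO. All SRSF3HKO arrays were above all WT arrays, though replicate 3 only just. The log2 levels were 11.01, 11.10 and 11.46 against 12.10, 12.23 and 11.51, with a difference of 0.76 ± 0.24 (SE, 95% interval 0.22 to 1.30) that missed the threshold (limma adjusted p = 0.0724). It passed without SRSF3HKO replicate 3 (0.98, limma adjusted p = 0.0320). All 9 probe sets had a higher mean in SRSF3HKO, by 0.66 to 0.97. Of these, 3 were called higher, against 4.73% of probe sets tested. The groups did not overlap in 7, against 15.1% of all probe sets that were higher without overlap. As probe sets of 1 gene they are not independent.

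Lum encodes lumican, a related proteoglycan whose gene lies next to Dcn on chromosome 10. Its median intensity was 201, 215 and 258 in WT and 1178, 246 and 397 in SRSF3HKO. Replicate 1 was several times brighter than the others, replicate 3 was above all WT arrays, and replicate 2 lay within them. The log2 change was 1.08 ± 0.49 (SE, 95% interval -0.04 to 2.19, limma adjusted p = 0.184). It was 0.46 without SRSF3HKO replicate 1 and not called, but 1.55 and called without replicate 2 (limma adjusted p = 0.0336), and 1.24 and called with array weights (0.0493). All 3 probe sets had a higher mean in SRSF3HKO, by 1.04 to 1.21.

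Lum and Acta2 were thus high on different SRSF3HKO arrays, and each lay within its WT range on the other's array. Kera and Epyc, the genes that follow Lum in RefSeq order, were below the floor. Of the 5 tested proteoglycan genes, Dcn and Lum included, limma called none, with 1 at an unadjusted p under 0.05. Bgn, encoding biglycan, had a log2 change of -0.48 and was not called, with its lowest level on SRSF3HKO replicate 3 (8.31 against 9.34 to 9.70 in WT). Prelp, encoding the proline-arginine-rich member and named after its values were seen, had a log2 change of -0.67 and was lowest on SRSF3HKO replicate 2 (7.74 against 8.98 to 9.24 in WT). The list's median log2 change was -0.19, and Ogn, Omd, Aspn, Epyc, Kera and Chad were below the floor.

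Kupffer cell and macrophage markers were highest on the array where Lum was highest. Their median level was 2.64 above the WT mean on SRSF3HKO replicate 1, 0.38 on replicate 2 and 0.56 on replicate 3, and their summed intensity was 3941 to 4369 in WT and 4804 to 27254 in SRSF3HKO. Although 12 of the 13 markers had a positive log2 change, not all were higher on every SRSF3HKO array. Clec4f, Timd4, Adgre1 and Csf1r, named after their values were seen, were above all WT arrays on replicate 1. They were below all WT arrays on replicates 2 and 3 (Timd4 at 5.83 and 6.98 against 7.22 to 7.52 in WT). Of 13 tested markers 3 rose, among them Gpnmb, a glycoprotein of lipid-laden macrophages (at least 4.26-fold, limma adjusted p = 0.00106, held in the 18 alternatives that gave it a value). Marco, a scavenger receptor, rose by 2.78 and Trem2, a lipid receptor, by 0.78 on the log2 scale (limma adjusted p = 0.0450 and 0.0486). Both calls ended without any of WT replicates 1 to 3 (0.137, 0.155 and 0.125 for Marco, 0.167, 0.163 and 0.0925 for Trem2), and that of Trem2 also without SRSF3HKO replicate 1 or 3 (0.0920 and 0.113). Both also ended with a pseudocount of 64, quantile normalization or the mean over probe sets (0.0656, 0.0538 and 0.0634 for Marco, 0.0502, 0.0572 and 0.0859 for Trem2). In all, the call of Marco ended in 10 of 19 alternatives and that of Trem2 in 15 of 18. No marker of the list was below the floor on the mean of all arrays, though Gpnmb passed it only through its SRSF3HKO arrays. The part of these cells in the Lum value was not tested. The log2 change of Pdgfra without SRSF3HKO replicate 1 was 1.70 ± 0.41 (limma adjusted p = 0.0380).

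Lrat encodes lecithin retinol acyltransferase, which makes the retinyl esters of the stellate cell store. Median intensities were 311, 121 and 260.5 in WT and 324, 139 and 202 in SRSF3HKO. The arrays varied widely within both groups and the groups overlapped. The log2 change was -0.08 ± 0.37 (SE, 95% interval -0.94 to 0.77, limma adjusted p = 0.910), and its sign turned without WT replicate 1 or 3 or SRSF3HKO replicate 2 (0.18, 0.05 and 0.15). Of its 4 probe sets, none was called.

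Of the 13 tested genes of retinoid storage and handling, 1 rose and 2 fell, against 6.85% and 5.03% of all genes tested. Their median log2 change was -0.03. Pnpla2, a triglyceride lipase that also hydrolyses retinyl esters and is active in many cell types, rose by 2.07 ± 0.39 (limma adjusted p = 0.0163). Aldh1a1, a retinaldehyde dehydrogenase that hepatocytes also express, fell by 1.52 (SE 0.27, limma adjusted p = 0.0132). Rdh10, a retinol dehydrogenase, fell by 0.78 (SE 0.21, limma adjusted p = 0.0497). All 3 calls ended without WT replicate 1 (0.0830, 0.0709 and 0.171) or 2 (0.0862, 0.0578 and 0.0819), those of Aldh1a1 and Rdh10 also without WT replicate 3 (0.0600 and 0.182), and that of Rdh10 also without SRSF3HKO replicate 1, 2 or 3 (0.0877, 0.0503 and 0.0719). In all, the call of Rdh10 ended in 11 of 19 alternatives.

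Reln encodes reelin, a secreted glycoprotein that stellate cells release in rodent liver. It had the most probe sets of these genes, 75. The median intensity was 424, 413 and 394 in WT and 450.0, 254 and 192 in SRSF3HKO. WT arrays lay close together, SRSF3HKO replicate 1 stood above them, and replicates 2 and 3 stood below them. The log2 levels of 8.78, 8.74 and 8.68 against 8.86, 8.08 and 7.70 gave a change of -0.52 ± 0.29 (SE, 95% interval -1.19 to 0.15, limma adjusted p = 0.278). Without SRSF3HKO replicate 1 it was -0.85 (limma adjusted p = 0.0524).

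The same split of the SRSF3HKO arrays ran through nearly all Reln probe sets. Replicate 3 was below all WT arrays in 74 of 75 and replicate 2 in 73, whereas replicate 1 was above all WT arrays in 40 and below them in 14. Of the 74 probe sets tested limma called none, with 11 at an unadjusted p under 0.05 and a lowest adjusted p of 0.0965. The difference was -1.06 within the arrays with Y-linked signal, where SRSF3HKO is represented by replicate 3, and -0.21 within the others. Sinusoidal endothelial markers showed a like order of arrays. Their median level differed from the WT mean by -0.06 on SRSF3HKO replicate 1, -0.75 on replicate 2 and -0.84 on replicate 3.

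Of 15 tested sinusoidal markers 3 fell and none rose, against 5.03% of all genes tested that fell and 6.85% that rose. Dnase1l3, a secreted nuclease, fell by 1.84, Flt4, a receptor for VEGF-C, fell by 1.00 and Kdr fell by 0.87 on the log2 scale (limma adjusted p = 0.0103, 0.0260 and 0.0452). The summed intensity of the list was 5698 to 7364 in WT and 3350 to 6545 in SRSF3HKO, and no marker was below the floor. The part of these cells in the Reln and Nrp1 values was not tested. The calls of Dnase1l3 and Flt4 ended without WT replicate 1 (0.0518 and 0.105) or 2 (0.0640 and 0.0873), that of Flt4 also without WT replicate 3 (0.106) or SRSF3HKO replicate 3 (0.0637), and that of Kdr without any of WT replicates 1 to 3 (0.121, 0.141 and 0.162) or SRSF3HKO replicate 2 or 3 (0.0508 and 0.107).

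Of the 6 tested genes of the reelin pathway 1 rose, against 6.85% of all genes tested. It was Vldlr, a receptor for reelin and for lipoproteins. It stood at 5.52, 4.96 and 7.23 in WT and 7.49, 8.27 and 7.78 in SRSF3HKO (log2 change 1.94 ± 0.53, limma adjusted p = 0.0495). WT replicate 3 was close to the SRSF3HKO arrays, and without it the adjusted p was 0.0099. Leaving out WT replicate 1 or 2 (0.172 and 0.167) or SRSF3HKO replicate 1, 2 or 3 (0.0541, 0.0776 and 0.0937) ended the call, and in all it ended in 12 of 19 alternatives. Lrp8, the other reelin receptor, had a log2 change of -0.35 and was lower on every SRSF3HKO array but not called, and the signalling genes Fyn, Crk and Crkl had changes of -0.28, 0.11 and 0.21. Dab1, the adaptor of both receptors, was below the floor.

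Hand2 encodes a basic helix-loop-helix factor of the stellate cell lineage. Its median intensity was 40.7, 59.3 and 60.4 in WT and 42.1, 60.9 and 53.1 in SRSF3HKO, with the groups overlapping. The log2 change was -0.10 ± 0.19 (SE, limma adjusted p = 0.757), and it was 0.26 over the 2 of its 4 probe sets above the floor. Of the 17 tested mesenchymal transcription factors 2 rose and none fell, against 6.85% and 5.03% of all genes tested. Tbx20, a T-box factor, rose by 0.92 ± 0.19 and Foxf1, a forkhead factor of liver mesenchyme, by 0.83 ± 0.17 on the log2 scale (limma adjusted p = 0.0224 and 0.0227). Both calls ended without any of WT replicates 1 to 3 (0.106, 0.0736 and 0.0835 for Tbx20, 0.0904, 0.0921 and 0.0892 for Foxf1), and that of Foxf1 also without SRSF3HKO replicate 3 (0.0516).

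Over all 181 probe sets of the 10 genes, 167 were bright enough to test, 20 were called higher and 1 lower. That is 21 calls, beside a background of 9.05% of probe sets tested, and 17 of them belonged to Pdgfra. The groups did not overlap in 55 probe sets, 33 higher and 22 lower, against 26.1% of all probe sets. Exon usage asks whether a probe set differs from the rest of its gene, and it was called by limma's diffSplice in 0 of 165 probe sets against 0.658% of all tested, with 3 at an unadjusted p under 0.05. A per-array splicing index, the second test, also called 0. The probe set with the lowest adjusted p for usage was 5013780 of Pdgfrb, at 8.16, 7.75 and 8.36 in WT and 7.40, 7.08 and 7.54 in SRSF3HKO (diffSplice adjusted p = 0.235).

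**Figure D4:**
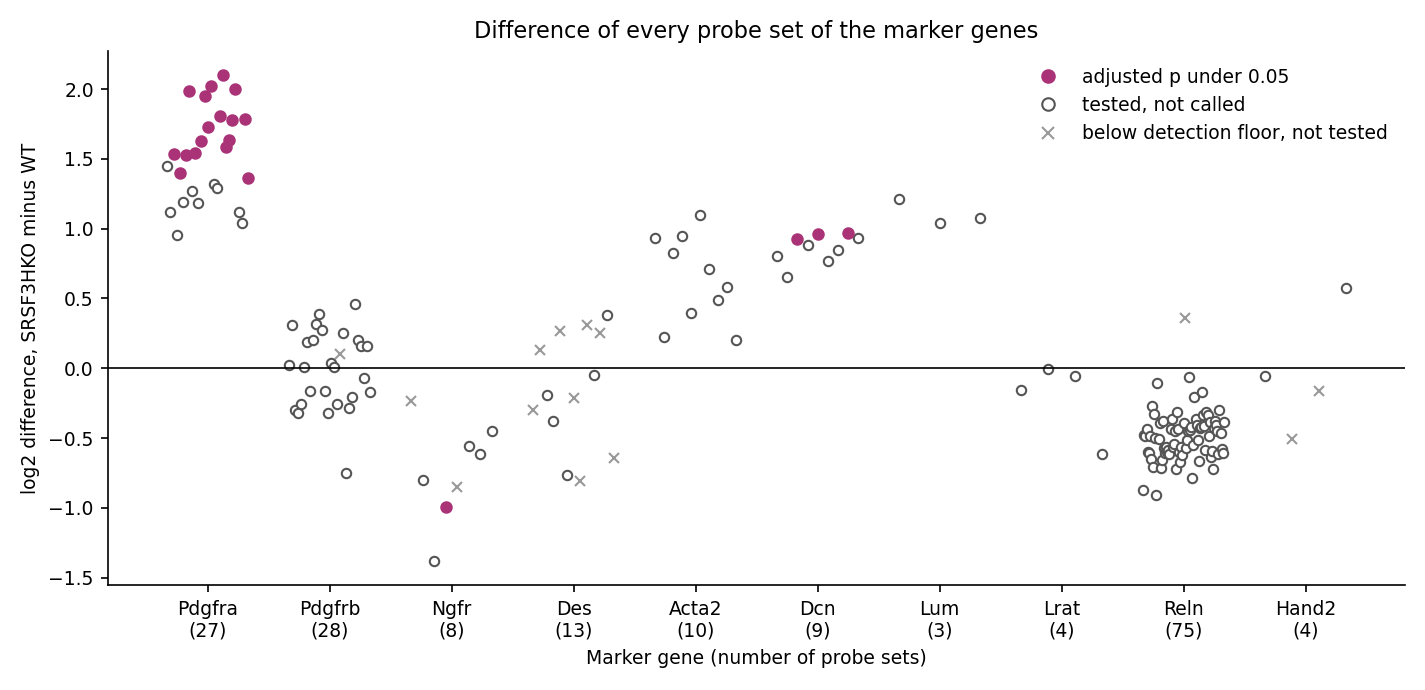
Log2 difference, SRSF3HKO minus WT, of each of the 181 probe sets, 1 point per probe set, with filled points called by limma and crosses for probe sets below the floor. The 27 Pdgfra probe sets all lay above 0 and the 8 Ngfr probe sets all below it, while 74 of the 75 Reln probe sets lay below 0 without a call.

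Of 13 further tested markers of the resting state 1 fell and none rose, against 5.03% and 6.85% of all genes tested. Their median log2 change was 0.14. Pth1r, the parathyroid hormone receptor, fell from 7.45 to 7.86 in WT to 5.70 to 6.61 in SRSF3HKO (log2 change -1.46 ± 0.27, limma adjusted p = 0.0149). The call ended without WT replicate 1, 2 or 3 (0.0765, 0.0555 and 0.0662). Gfap, a filament gene used for stellate cells in rodents, was below the floor.

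Of 25 further activation markers 1 rose and 2 fell, against 6.85% and 5.03% of all genes tested. Their median log2 change was -0.05. Ccn2, encoding connective tissue growth factor, which hepatocytes can also make, rose from 7.08 to 7.70 in WT to 8.44 to 9.35 in SRSF3HKO (log2 change 1.64 ± 0.29, limma adjusted p = 0.0125). Sparc, a matrix glycoprotein, and Col3a1, collagen III alpha 1, fell by 1.17 and 1.41 on the log2 scale (SE 0.27 and 0.37, limma adjusted p = 0.0301 and 0.0434). The call of Ccn2 ended without WT replicate 1 or 3 (0.0709 and 0.0599). Those of Sparc and Col3a1 ended without WT replicate 1 (0.101 and 0.160), 2 (0.107 and 0.133) or 3 (0.114 and 0.0913) or SRSF3HKO replicate 3 (0.0530 and 0.0753), and also with the mean (0.0686 and 0.0614) or median polish (0.0713 and 0.0618) over probe sets. In all, the call of Sparc ended in 6 and that of Col3a1 in 9 of 19 alternatives.

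Of 19 tested TGF beta pathway genes 1 rose and 1 fell, against 6.85% and 5.03% of all genes tested. Smad2, a signal transducer, rose by 0.72 and Ltbp4, a latent TGF beta binding protein, fell by 1.05 on the log2 scale (limma adjusted p = 0.0368 and 0.0161). Both calls ended without any of WT replicates 1 to 3 (0.136, 0.125 and 0.117 for Smad2, 0.0869, 0.0677 and 0.0625 for Ltbp4), and that of Smad2 also without SRSF3HKO replicate 1 or 3 (0.0777 and 0.0612).

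Markers of other mesenchymal cells were examined because they share genes with those studied here. Of 16 tested portal fibroblast markers 1 fell, Gas1, a growth arrest membrane protein (log2 change -1.16 ± 0.25, limma adjusted p = 0.0249), and none rose. Their summed intensity was 1263 to 2346 in WT and 1014 to 1349 in SRSF3HKO, with Slit2 below the floor. This sum leans on Ly6a, named after its values were seen and the brightest of the list on every WT array. Ly6a stood at 10.54 on WT replicate 1, 8.85 and 9.03 on WT replicates 2 and 3, and 7.89 to 8.89 in SRSF3HKO. It was not called (log2 change -1.01, limma adjusted p = 0.188). Of 8 mesothelial markers 1 fell, Upk3b, a uroplakin (log2 change -0.92 ± 0.17, limma adjusted p = 0.0135), and none rose. Both calls ended without any of WT replicates 1 to 3 (0.100, 0.0546 and 0.0908 for Gas1, 0.0618, 0.0603 and 0.0625 for Upk3b), and that of Gas1 also without SRSF3HKO replicate 3 (0.0636). The median log2 changes of these lists were -0.11 and -0.29, against 0.08 over all genes tested, of which 5.03% fell. The part of these cells in the values of the 10 genes was not tested.

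**Figure D5:**
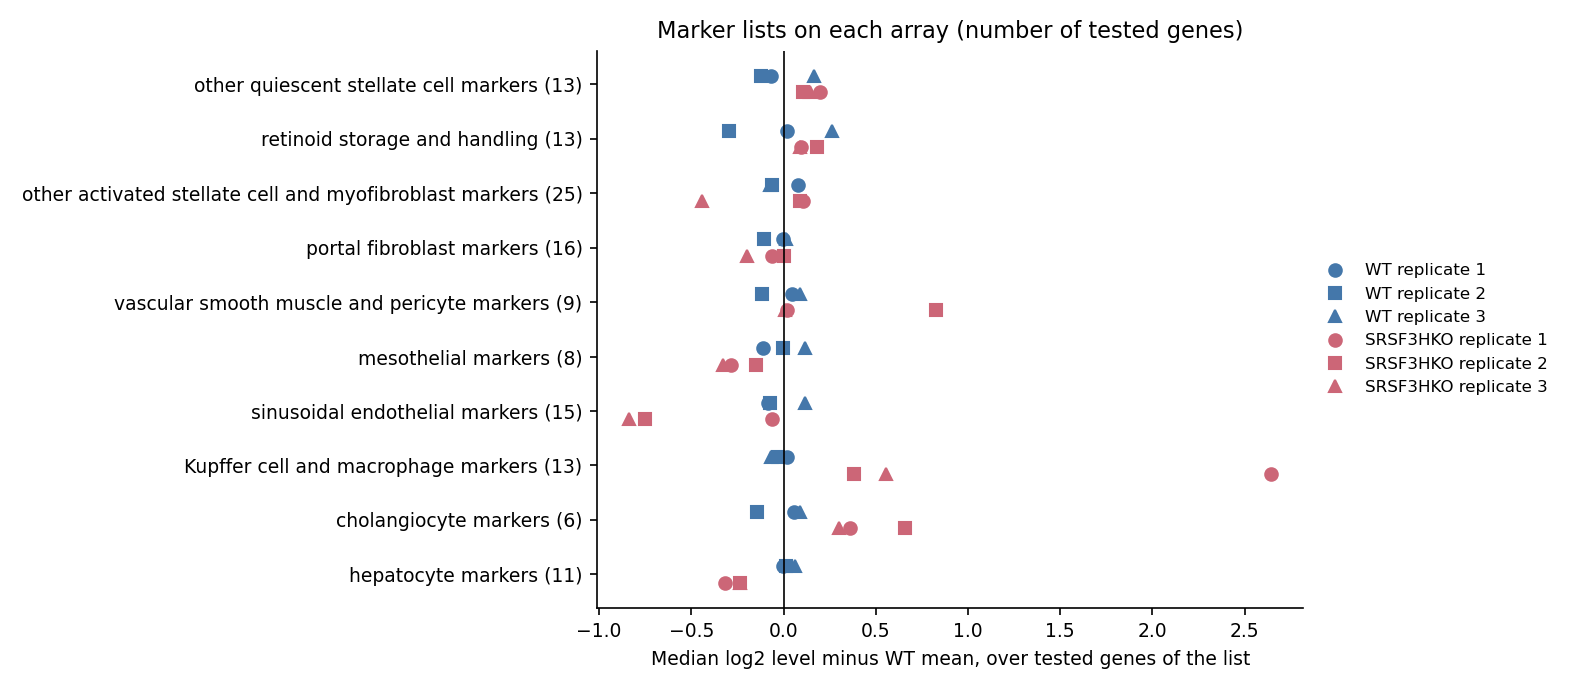
Median log2 level of each marker list minus the WT mean, with 1 point per array and the number of tested genes in brackets. Macrophage markers stood 2.64 above the WT mean on SRSF3HKO replicate 1, vascular smooth muscle and pericyte markers 0.82 above it on replicate 2, and sinusoidal endothelial markers below it on replicates 2 and 3. The smooth muscle and pericyte list shares genes with the contractile genes shown before, Actg2 and Myh11 among them.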

How the data were processed

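Total RNA of whole liver was hybridised to exon arrays, per the labels' protocols. The deposited values are linear PLIER intensities of core exon probe sets, and the tools PLIER and Affymetrix Expression Console are named in the submitters' processing notes. Their versions, the background step and the genome build are not given in the sources used here. Genotypes come from the labels, and replicate numbers follow accession order and pair nothing.

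Of the probe sets, 208397 had 1 gene in the array annotation, 3965 had several and 17219 had none, and only the first kind entered gene levels and exon usage. Symbols were updated through RefSeq synonyms. Intensities were taken as log2(intensity + 16), without further normalization, and a gene's level was the median of its probe sets. A detection floor was set at the 90th percentile of 1046 genes of olfactory, taste and vomeronasal receptors, 5.35 for genes and 5.63 for probe sets, and features whose mean exceeded it were tested. Where a group mean was below this floor, a called gene's fold is a lower bound computed from it.

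Both groups were compared with limma 3.58.1 (eBayes with trend, R 4.3.3). P-values were adjusted by Benjamini-Hochberg over all genes or all probe sets tested, with a threshold of 0.05. Exon usage was tested with diffSplice in genes with at least 3 tested probe sets. The pipeline was tested on simulated data. The number of arrays limits the precision. The members and gene lists were chosen with earlier results of these data known. Named were all 10 members, Srsf3, Eif2s3y, the PDGF and reelin lists in full, the neurotrophin list as far as it is reported here, per other list up to 4 called genes with the lowest adjusted p or else the 2 brightest, and the members' neighbours where a result turns on them. Genes named after their values were seen are marked as such. RefSeq gave upstream sequences for 7 of the 10 members. Alternatives were quantile normalization, median centring, pseudocounts of 1 and 64, other summaries over probe sets, other filters, other eBayes settings, array weights, a covariate for Y-linked signal, and leaving out each array.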

Additional observations from a re-analysis of the deposited data

How the results depend on the processing

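The count of member genes called was 2 as reported. It was 1 with the mean over probe sets, with only probe sets above the floor, with no filter and with a filter at the median of all genes, 0 with the Y-linked covariate, 3 with array weights, and 0 to 2 when 1 array was left out. The filter at the median of all genes leaves Ngfr, Des and Hand2 untested. Over all genes 1391 were called as reported, 2157 with array weights, 707 with the Y-linked covariate and 244 to 2155 with 1 array left out, lowest without WT replicate 1. Of the member probe sets 21 were called as reported, 10 with no filter, 10 with the Y-linked covariate, 25 with array weights and 0 to 24 with 1 array left out, lowest without WT replicate 2. Exon usage called 0 member probe sets in every alternative run. Of the 28 called list genes outside the members, 3, 4 and 7 remained without WT replicates 1, 2 and 3, 22, 25 and 16 without SRSF3HKO replicates 1, 2 and 3, and 16 with the Y-linked covariate. Over all 19 alternatives the call of Kdr ended in 8, that of Fga in 8, those of Mrtfb and Smad2 in 7 each and that of Kcnj8 in 6.

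Signs turned for 4 members. The log2 change of Pdgfrb was -0.047 with quantile normalization, -0.044 with median centring, -0.0067 with the mean and -0.0019 with median polish over probe sets, -0.039 with only probe sets above the floor, -0.11 with array weights, -0.062 with the Y-linked covariate and -0.071 to 0.16 with 1 array left out. That of Acta2 was -0.027 with array weights and -0.20 to 1.18 with 1 array left out, that of Lrat -0.47 to 0.18 with 1 array left out, and that of Hand2 0.26 with only probe sets above the floor. Reln and Des kept their direction and stayed uncalled in every alternative run that gave a value. No paired analysis was possible because the labels give no replicate numbers that the groups share.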

Other observations

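Other cell types of the liver gave further differences on the same arrays. Of the 11 hepatocyte markers 2 fell, Serpina1c, an alpha-1 antitrypsin gene read by 1 probe set, by 1.57 and Fga, fibrinogen alpha, by 0.88 on the log2 scale (limma adjusted p = 0.00897 and 0.0429). Of all genes tested 5.03% fell. The summed intensity of the hepatocyte markers was 98422 to 100769 in WT and 73544 to 88889 in SRSF3HKO. The call of Serpina1c ended without WT replicate 1 or 2 (0.0551 and 0.0603), and that of Fga without WT replicate 1, 2 or 3 or SRSF3HKO replicate 1 or 3 (0.121, 0.150, 0.136, 0.0702 and 0.0879). Of 3 tested erythroid markers 1 fell, Alas2, the erythroid haem synthesis enzyme (log2 change -2.35, limma adjusted p = 0.0228), and the call ended without WT replicate 1, 2 or 3 (0.0803, 0.0993 and 0.0529). Ermap and Slc4a1, named after their values were seen, were not called (limma adjusted p = 0.158 and 0.112). Ermap was higher and Slc4a1 lower on every SRSF3HKO array (log2 change 0.46 and -0.42).

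Of 6 tested cholangiocyte markers limma called none, with 2 at an unadjusted p under 0.05. Spp1, encoding osteopontin, was higher on every SRSF3HKO array (9.25 to 11.41 against 8.25 to 8.68) with a difference of 1.56 ± 0.53 on the log2 scale (limma adjusted p = 0.0932). The summed intensity of the list was 530 to 746 in WT and 884 to 3050 in SRSF3HKO. Spp1 was the brightest gene of the list on every array, so this sum does not describe the markers as a set. The groups overlapped for every other tested marker, though 5 of the 6 had a positive log2 change. Sox9, a factor of the bile duct lineage, had a log2 change of 0.11. Limma called none of the 5 lymphocyte, 3 neutrophil and 2 sex-chromosome genes tested, with 0 at an unadjusted p under 0.05. The B cell receptor gene Cd79b and the T cell receptor gene Cd3e had log2 changes of 0.12 and -0.10. S100a8, a calcium-binding protein of neutrophils, had a log2 change of 0.66 and stood at 7.33 on SRSF3HKO replicate 1 against 4.79 to 5.94 on the other 5 arrays, and Csf3r, the G-CSF receptor, had a change of 0.02.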
